A study of Mus musculus with 31 samples.

Results

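The baseline liver transcriptome was described in the 11 *hFIX-R29X* mice that received DPBS, the saline vehicle, out of 31 mice in the series. They were chosen by their sample label alone, 6 of them labelled female and 5 male. *hFIX-R29X* mice carry a human factor IX minigene with the nonsense mutation R29X, driven by the human transthyretin promoter, and lack the endogenous mouse *F9* gene, so every mouse used here is a hemophilia B mouse and none is a wild-type control. The mice were 8 to 14 weeks old, received DPBS under the skin 6 times, at 5-day intervals by the protocol though 1 label says weekly, and their livers were taken 48 h after the final injection. Sequencing was of total liver RNA, with 1 library per mouse. A second set of 10 mice of the same model, given a Control-GalNAc-ASO, comprised 4 animals at 15 mg/kg and 6 at 20 mg/kg, each dose split evenly by sex, and was used only to look at the same genes in other animals. This antisense oligonucleotide (ASO) carries GalNAc, a sugar ligand that hepatocytes take up, and has no intended target. Mouse *F9* was between 0 and 2.58 TPM in the DPBS-treated mice.

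The liver makes most of the proteins of blood plasma, among them albumin, transferrin, apolipoproteins, clotting factors and complement, and its hepatocytes export them continuously. The same cells make glucose, dispose of ammonia through the urea cycle, burn and build fatty acids, make cholesterol and bile acids, and modify foreign compounds with cytochrome P450 enzymes and transferases. In rodents many hepatocyte genes differ between the sexes, a difference known to follow the pulsed or steady pattern of growth hormone release, and major urinary proteins (MUPs), pheromone carriers that leave in the urine, are the classic example in male mice.

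Levels are given in TPM, which sums to nearly the same total in each mouse, so that a share of TPM is a share of the mRNA measured and a large share in some genes lowers the share of the others. The values were not divided by transcript length here, so they compare a gene between mice, and the ranks of genes against each other are also given per length. From the smallest step between values, the libraries were estimated to hold 1184204 to 6741374 quantified reads, well under the average sequencing depth that the study's methods state, and a level of 3 reads was worth 0.445 to 2.53 TPM, which covers counting error only. Of 31172 gene symbols, 13988 were at 0 in all 11 mice, 7906 were above 0 in all and 8405 had a median of at least 5 TPM. The Y-linked gene *Ddx3y* ran from 40.1 to 57.9 TPM in the 5 males and did not exceed 1.01 TPM in any of the 6 females. Female 6 and female 7, named by their replicate numbers, had the fewest reads and the lowest median correlation with the other mice, 0.721 and 0.774, against 0.789 to 0.874 for the other 9. Female 9, male 3, male 8 and male 11 had the largest share of TPM in genes whose transcripts hold a long run of A, as described below.

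Markers of hepatocytes dominated the libraries. All 12 hepatocyte markers had a median of at least 5 TPM, and together they summed to between 42310 and 77132 TPM per mouse. Markers of periportal hepatocytes, led by the urea cycle enzyme *Ass1*, summed to 13382 to 18314 TPM, and those of pericentral hepatocytes, led by *Cyp2e1*, to 3134 to 6745 TPM. Markers of the other liver cells were present at lower levels: 11 of 14 for Kupffer cells and macrophages (407 to 1111 TPM summed), 13 of 13 for sinusoidal endothelium (993 to 2720 TPM) and 7 of 14 for stellate cells and fibroblasts (218 to 370.4 TPM) had a median of at least 5 TPM. The endothelial sum rested on *Pecam1*, at 1214 TPM, and the other markers of that list summed to 545 TPM. The erythroid markers, 5 of 8 over 5 TPM, were led by the globin gene *Hbb-bs* at 671 TPM.

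Markers of other tissues and of blood leukocytes were mostly near 0. None of 11 lymphocyte and none of 8 kidney markers reached a median of 5 TPM, and 1 of 8 cholangiocyte, 1 of 12 exocrine pancreas, 1 of 8 neutrophil and 1 of 7 adipocyte markers did. The exceptions were the bile duct factor *Sox9* (10.0 TPM), the elastase *Cela1* (271 TPM), the chemokine receptor *Cxcr2* (324 TPM) and the carbonic anhydrase *Car3* (4395 TPM), while the defining pancreatic, neutrophil and fat genes beside them, such as *Cela2a* (1.05 TPM), *S100a8* (3.10 TPM) and *Adipoq* (0.245 TPM), were near 0. Skeletal muscle markers, 5 of 8 over 5 TPM, were led by the myosin *Myh4* (14.9 TPM) and summed to 10.98 to 138 TPM per mouse. In these whole-liver samples, fewer cells of a type and less RNA per cell cannot be told apart.

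The most abundant mRNAs encoded plasma proteins, mitochondrial subunits and enzymes of the hepatocyte. *Trf*, which encodes the iron carrier transferrin, stood first at 25576 ± 8713 TPM (SD, n = 11), or 2.58% of all TPM, and ranged from 15855 through a median of 22841 to 43229.6 TPM. *Alb*, which encodes albumin, had rank 3 at 15811 ± 6195 TPM, or 1.60%, and ranged from 9217 to 26287 TPM. The lowest *Trf* and the lowest *Alb* both belonged to males, and the highest of each to a female. The 25 leading genes together held 21.1% of TPM on average, and each mouse's own leading 25 held between 20.6% and 25.4%. The 500 leading genes of a mouse held between 59.6% and 64.3%, and 119 genes whose median reached 1000 TPM held 40.6%.

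Enzymes and lipid carriers filled much of the rest of the leading 25. Urate oxidase (*Uox*) was at 9870 ± 1099 TPM, the acetaldehyde-oxidizing enzyme *Aldh2* at 9348 ± 1916 TPM, the urea cycle enzyme *Ass1* at 7224 ± 2359 TPM and the antioxidant enzyme *Sod1* at 6316 ± 1319 TPM. Apolipoproteins *Apof* and *Apoe* were at 8717 ± 2892 and 4776 ± 749 TPM, and the sterol carrier *Scp2* at 4426 ± 1241 TPM. *Pck1*, the rate-controlling enzyme of gluconeogenesis, was at 5487 ± 2761 TPM and spanned from 1441 to 9804 TPM, whereas *Uox* spanned only from 7448 to 11230.2 TPM. The chaperone *Hsp90ab1* (4355 ± 1765 TPM), the stress-linked transcription factor *Atf5* (4153 ± 2064 TPM), the mitochondrial protein *Chchd2* (6931 ± 1216 TPM), *Car3* (4395 ± 1239 TPM), *Cdc73*, a subunit of the PAF transcription complex (3884 ± 1970 TPM), and the protease inhibitor *Serpina3k* (3840 ± 1758 TPM) completed the nuclear genes without a run of 30 A or more.

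**Figure D1:**
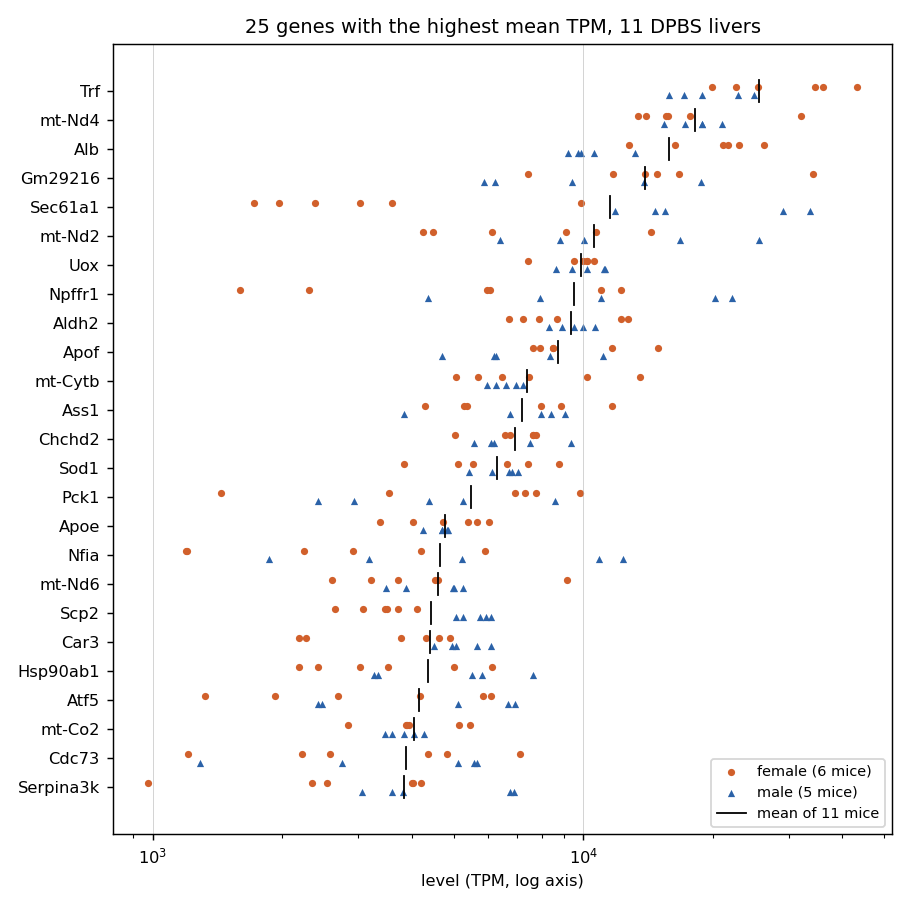
Level of the 25 genes with the highest mean TPM, 1 point per mouse on a log axis (circles, 6 females; triangles, 5 males), with the mean of the 11 mice as a vertical line. *Uox* lies in a narrow band from 7448 to 11230.2 TPM, while *Sec61a1* spans from 1717 to 33576 TPM.

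Mitochondrially encoded genes held 5.72 ± 1.43% of TPM, from 4.01% to 8.89%. *mt-Nd4* (18157 ± 5111 TPM), *mt-Nd2* (10599 ± 6304 TPM), *mt-Cytb* (7412 ± 2422 TPM), *mt-Nd6* (4587 ± 1739 TPM) and *mt-Co2* (4037 ± 733 TPM), which encode subunits of respiratory complexes, were among the leading 25. *Gm29216*, listed by the annotation as a pseudogene and a near-copy of *mt-Co1*, was at 13893 ± 7947 TPM, whereas *mt-Co1* itself was at 439 ± 72.7 TPM, so reads of the mitochondrial cytochrome oxidase gene may stand under the pseudogene's name and both levels are uncertain. The mitochondrial share does not count *Gm29216* (1.40% of TPM) or *Gm13339*, a near-copy of *mt-Nd2* (0.0548%), and is uncertain for the same reason. Female 6 had the highest *mt-Nd4* (31974 TPM), *Gm29216* (34147 TPM) and mitochondrial share of the 11 mice.

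Of the leading 25 genes, 3 hold a run of at least 30 A in an annotated transcript. They are *Sec61a1* (11567 ± 11092 TPM), a subunit of the channel through which secreted proteins enter the endoplasmic reticulum, *Npffr1* (9532 ± 6743 TPM), a neuropeptide receptor, and *Nfia* (4653 ± 3786 TPM), a transcription factor. The endothelial marker *Pecam1* holds such a run as well. The runs are shown here because the levels of most such genes varied together between mice, and these 4 genes were picked after their values had been seen. Each line gives 12 bases of the transcript in lower case, followed in capitals by the first 18 A of the run, 5′ to 3′, from GENCODE M21 transcripts.
Sec61a1: ttgctgatacttAAAAAAAAAAAAAAAAAA
Npffr1: tgcctccttgatAAAAAAAAAAAAAAAAAA
Nfia: catatgtgcactAAAAAAAAAAAAAAAAAA
Pecam1: ctcgaaaaacccAAAAAAAAAAAAAAAAAA
On GRCm38, the 32 A of *Sec61a1* lie at chr6:88513715-88513746 on the minus strand, in an exon of a retained-intron transcript with no coding sequence. The 31 A of *Npffr1* lie at chr10:61626493-61626523 on the plus strand and the 38 A of *Nfia* at chr4:98114266-98114303 on the plus strand, both in the 3′ untranslated region. The 43 A of *Pecam1* lie at chr11:106662928-106662970 on the minus strand, again in an exon of a retained-intron transcript.

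Genes with such runs were high more often than others. Of 72 genes with a run of at least 30 A, 18.1% had a mean over 500 TPM, against 0.831% of 29109 genes whose longest run was under 15 A. Among genes with transcripts of at least 2 kb, 46.6% of those with a run of 30 or more and 6.31% of those under 15 were over 100 TPM. The 72 genes held 4.33 ± 2.93% of TPM, lowest in female 6 at 1.04% and highest in male 3 at 9.56%. The share was 9.43% in male 11, 5.60% in male 8 and 5.41% in female 9, and at most 3.84% in the other mice. It averaged 2.73 ± 1.61% in females and 6.25 ± 3.12% in males, and lay between 1.62% and 5.09% in the 10 Control-GalNAc-ASO mice.

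Most of the 34 such genes with a mean of at least 100 TPM varied together, with a median pairwise correlation of 0.879 over the 11 mice (lowest -0.27), against 0.0223 among all 1522 genes at that level. All but 1 of the 34 had the higher mean in males, against 714 of the 1522 genes. Since most of the 34 varied together, these are not separate differences between the sexes. Not all genes with such runs varied in this way: *Tor1aip1* (run of 35 A) was between 86.8 and 148 TPM in every mouse, and *Klkb1* (run of 50 A), at a mean of 67.8 TPM, was lowest in male 3. *Nfia* was at 12370 TPM in male 11 and 10898 TPM in male 3, while the lowest, 1193 TPM, was in female 5. *Npffr1* was highest in the same males, at 22150 TPM in male 3 and 20256 TPM in male 11, and lowest in female 6 at 1598 TPM. Priming from the 3′ end, as with the kit named in the labels, starts at runs of A, and the part of such runs in these levels was not tested. Runs of 30 or more A lay in a 3′ untranslated region in 33 genes, in a 5′ untranslated region in 3, in coding sequence in 1 and in exons of transcripts with no coding sequence in 35.

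**Figure D2:**
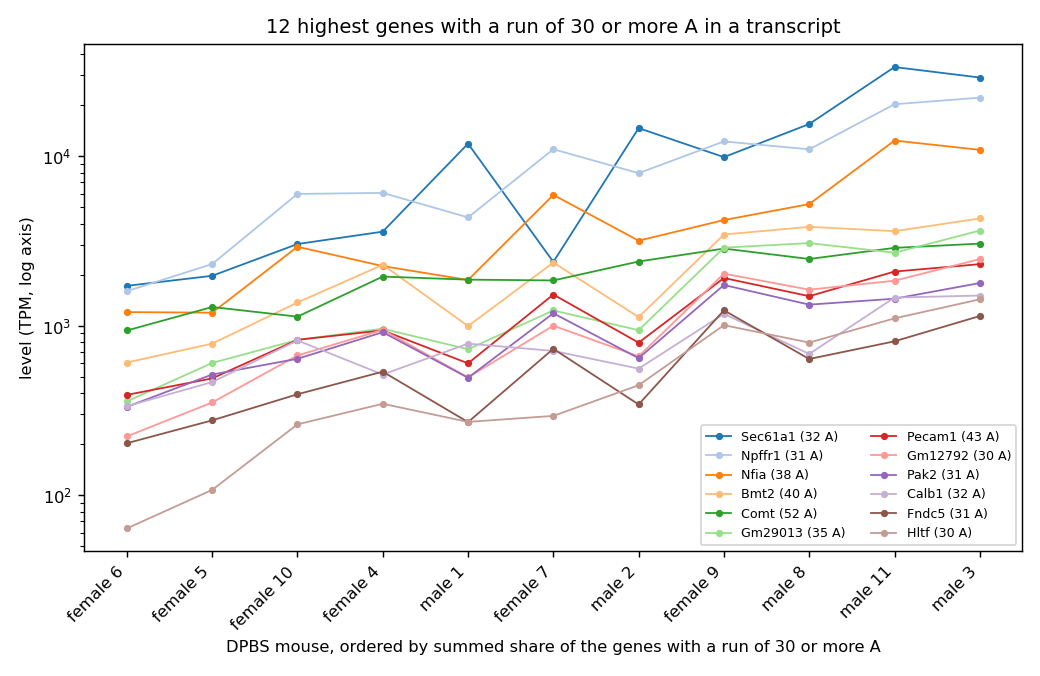
Level in TPM (log axis) of single genes with a run of at least 30 A, 1 line per gene, over the 11 DPBS mice ordered by the summed share of all such genes. The 12 genes with the highest mean are drawn, and they lie higher in male 11 and male 3, with shares of 9.43% and 9.56%, than in female 6, with 1.04%.

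Divided by transcript length, the order of the leading genes shifted toward short transcripts and 14 of the 25 leading genes were shared. *Gm29216*, *mt-Nd4*, *mt-Nd2*, *Trf*, *mt-Nd6* and *Alb* then led, *Sec61a1* fell from rank 5 to rank 18, and *Npffr1* and *Nfia* left the 25. Short secreted or fatty acid-binding transcripts entered, among them *Wfdc21* (rank 10 per length, rank 54 by TPM), the fatty acid-binding protein *Fabp1* (rank 12 and 35) and apolipoprotein *Apoa2* (rank 23 and 79). The pseudogene *Gm29013*, whose transcript of 237 bases holds a run of 35 A, entered as well (rank 7 and 83). The length was that of the longest annotated transcript of each gene.

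Secreted proteins made up a large part of the liver mRNA. The 152 genes of 8 lists of secreted proteins, from plasma carriers to liver hormones, held 14.7 ± 1.33% of TPM (n = 11), from 12.99% in male 3 to 17.7% in female 5. Plasma carriers alone held 6.22 ± 1.42%, led by *Trf*, *Alb*, the thyroxine carrier *Ttr* (3474 ± 972 TPM) and fetuin-A (*Ahsg*, 3047 ± 1104 TPM). Their share was 6.59% to 8.34% in females and 4.50% to 5.29% in males, so the sexes did not overlap. Apolipoproteins, the protein coat of lipoproteins, held 2.20 ± 0.44%, led by *Apof*, *Apoe*, *Apoa2* (1739 ± 422 TPM) and *Apoc1* (1581 ± 281 TPM).

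The clotting and fibrinolysis list, the pathway that is broken in this model at factor IX, held 1.61 ± 0.34%. Its leading members were prothrombin (*F2*, 2664 ± 656 TPM), the fibrinogen chain *Fgb* (1898 ± 710 TPM), antithrombin (*Serpinc1*, 1865 ± 352 TPM) and plasminogen (*Plg*, 1688 ± 835 TPM). Females had 1.55% to 2.26% and males 1.15% to 1.44%. Protease inhibitors held 1.33 ± 0.34%, led by *Serpina3k* and alpha-2-macroglobulin *Pzp* (1577 ± 266 TPM). Complement held 0.883 ± 0.10%, led by *C3* (3001 ± 902 TPM), on which all complement pathways converge, and factor B (*Cfb*, 1527 ± 325 TPM). The acute phase list held 0.864 ± 0.10%, most of it haptoglobin (*Hp*, 2633 ± 649 TPM) and *Fgb*, while the strongly inducible *Saa1* and *Saa2* were at 29.6 ± 13.5 and 29.5 ± 24.2 TPM. Hormones and growth factors held 0.829 ± 0.16%, led by the binding proteins *Igfbp4* (2845 ± 606 TPM) and *Igfbp2* (1352 ± 296 TPM), *Fgl1* (1286 ± 902 TPM) and *Igf1* (969 ± 167 TPM), and their share was 0.858% to 1.05% in females and 0.630% to 0.693% in males.

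MUPs were the secreted list that set the mice apart most. They held 3.86%, 3.19%, 3.06%, 2.84% and 3.17% of TPM in males 1, 2, 3, 8 and 11, and between 0.230% and 1.17% in the 6 females. *Mup20* (3678 ± 4296 TPM), *Mup16* (3572 ± 1691 TPM), *Mup14* (2684 ± 1385 TPM) and *Mup11* (2541 ± 2431 TPM) led. MUP genes are near-identical copies, so the split among them is uncertain and sums are the firmer values. The sum of 21 genes was 6312 TPM on average in females and 31926 TPM in males. With the MUP pseudogenes added, 48 genes in all, it was 6328 and 34883 TPM. Male 8 rose from 28135 to 35405 TPM by this, so the order of the males depends on the copies counted.

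Metabolic enzymes made up another large part. The 300 genes of 10 metabolic lists held 9.38 ± 1.32% of TPM, with 9.62% to 11.2% in females and 7.47% to 8.84% in males. Amino acid and one-carbon metabolism held 1.69 ± 0.20%, led by the methionine adenosyltransferase *Mat1a* (2978 ± 866 TPM), the histidine-degrading *Ftcd* (2611 ± 942 TPM), the homocysteine-forming *Ahcy* (2045 ± 432 TPM) and the cysteine dioxygenase *Cdo1* (1231 ± 274 TPM). The cytochrome P450 families held 1.61 ± 0.46%, led by *Cyp2e1* (2839 ± 852 TPM), *Cyp2a5* (2732 ± 1773 TPM), *Cyp2a4* (2336 ± 1251 TPM) and *Cyp2a12* (1605 ± 492 TPM), and their share was 1.77% to 2.27% in females and 0.986% to 1.32% in males.

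Gluconeogenesis and glycogen genes held 1.53 ± 0.38%, and included *Pck1*, the glycogen-targeting *Ppp1r3b* (3097 ± 1929 TPM) and glycogen phosphorylase (*Pygl*, 1351 ± 254 TPM). Fatty acid oxidation and ketogenesis held 1.24 ± 0.18%, led by *Fabp1* (3236 ± 1110 TPM) and the peroxisomal thiolase *Acaa1b* (1255 ± 382 TPM). The urea cycle held 0.962 ± 0.23%, most of it *Ass1*, with arginase *Arg1* at 1075 ± 315 TPM and *Cps1*, the entry enzyme, at 455 ± 92.8 TPM. Fatty acid synthesis held 0.764 ± 0.12%, led by the desaturase *Scd1* (2810 ± 958 TPM), and cholesterol synthesis 0.472 ± 0.16%, with *Cyp51* at 652 ± 387 TPM and *Hmgcs1* at 417 ± 271 TPM. Bile acid synthesis and transport held 0.455 ± 0.058%, led by the uptake transporter *Slco1b2* (2574 ± 523 TPM). Glucuronosyl and sulfotransferases held 0.508 ± 0.24%, with 0.477% to 1.06% in females and 0.270% to 0.445% in males. Glutathione S-transferases held 0.220 ± 0.052%, with the higher shares in males (0.2196% to 0.339%, against 0.156% to 0.210% in females). The male excess rested on *Gstp1*, at 1173 ± 234 TPM in males and 153 ± 12.6 TPM in females. It was the only called member higher in males, and *Gstt3* was called higher in females.

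Nuclear genes of oxidative phosphorylation held 1.45 ± 0.13% and cytosolic ribosomal proteins 3.31 ± 0.35%, the latter led by *Rps9* (3428 ± 531 TPM). Iron and antioxidant genes held 1.29 ± 0.14%, and a list of common reference genes 0.983 ± 0.11%. Stress genes held 0.563 ± 0.21%, most of it the endoplasmic reticulum chaperone *Hspa5* (3662 ± 1585 TPM), and male 1 had the highest share, 1.08%. The asialoglycoprotein receptor *Asgr1*, which takes up GalNAc, was at 2321 ± 1143 TPM and its partner *Asgr2* at 316 ± 88.8 TPM. Transcription factors of the liver held 0.286 ± 0.048%, clock genes 0.232 ± 0.054%, interferon-stimulated genes 0.177 ± 0.034%, factors of nonsense-mediated decay 0.0746 ± 0.013% and cell cycle genes 0.0208 ± 0.0085%.

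**Figure D3:**
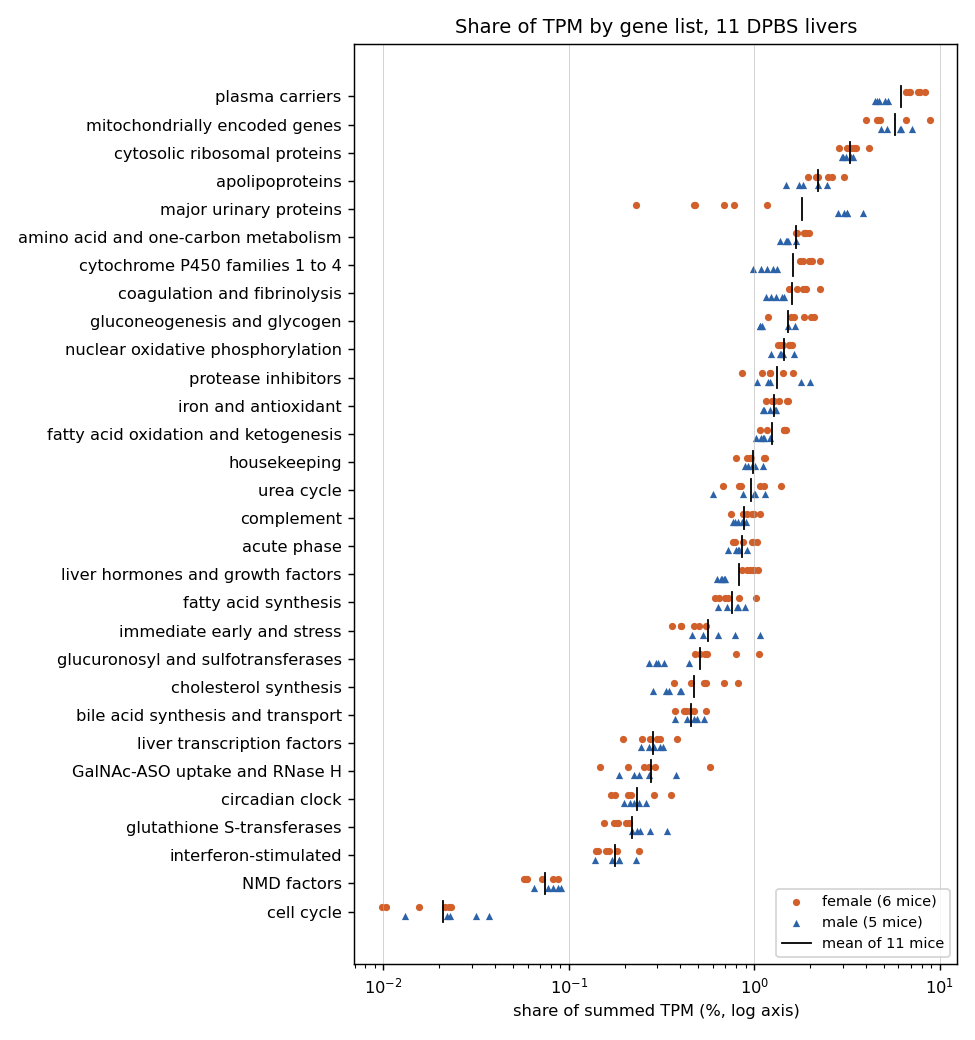
Share of TPM held by each gene list in percent, 1 point per mouse on a log axis (circles, 6 females; triangles, 5 males), with the mean of 11 mice as a vertical line. The MUP share is 0.230% to 1.17% in females and 2.84% to 3.86% in males, while the shares of oxidative phosphorylation genes overlap between the sexes.

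Spread between mice was measured for the 8405 genes whose median reached 5 TPM as the coefficient of variation (CV, SD divided by mean). The median CV was 0.478, against 0.119 from counting reads alone, and 1 gene was at or below its counting value. Abundant genes were steadier: the median CV was 0.611 between 5 and 20 TPM, 0.410 between 20 and 100, 0.320 between 100 and 500 and 0.304 from 500 TPM upward. The 420 genes with the lowest CV (5%) were called steady, and the 420 with the largest CV squared beyond counting were called variable. *Arl3*, the last steady gene, had a CV of 0.225 and *Cdipt*, the next outside, also 0.225. *Gm20257*, the last variable gene, had a CV of 0.911, and *Plpp5*, the next outside, 0.936 at a lower level.

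The steady genes had a median CV of 0.198 and a median mean level of 148 TPM. In the 10 Control-GalNAc-ASO mice, 91.2% of them lay below the median spread of all genes and 82.6% of the variable genes lay above it, where the spread was the SD of log2(TPM + 1) after dose and sex means had been subtracted. These animals did not choose the genes, but steady genes were also the more abundant, and the low-level genes were the more variable in both sets.

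Of the steady genes, 111 of 420 were in a list. Of the 82 cytosolic ribosomal protein genes over 5 TPM 28 were steady and none variable, and of 76 nuclear oxidative phosphorylation genes 19 were steady and *Atp5f1* alone was variable, beside 5% of all genes in each class by construction. In amino acid metabolism 8 of 36 were steady, among them *Ahcy* and *Cdo1*, and in fatty acid oxidation 6 of 31. In bile acid and in fatty acid synthesis 4 of 18 each were steady, and among plasma carriers 4 of 19. Steady genes were more common at high levels, with 272 among the 1436 whose median reached 100 TPM. Whether any of these lists was steadier than other genes of similar level was not tested. *Abhd17c*, a depalmitoylating hydrolase, had the lowest CV of all, 0.0825, and lay between 129 and 165 TPM. The methionine sulfoxide reductase *Msrb1* (CV 0.105) lay between 144 and 212 TPM and *Uox* (CV 0.111) followed it.

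The other 12 steadiest genes had CVs up to 0.131. Among them were the actin-severing cofilin *Cfl1*, the actin nucleation subunit *Arpc1b*, the nucleolar proteins *Imp3* and *Fbl*, the ribosomal proteins *Rps3* and *Rpl5*, the transcription factor *Nfix*, the co-chaperone *Dnaja1*, *Rnf214*, the phosphatase *Cdc14b* and the kinase *Nek9*. All 15 stayed among the steady genes without female 6 and female 7. Of 25 common reference genes 6 were steady, among them *Ppia*, *Pgk1*, *Eef2* and *Rplp0*, while the transferrin receptor *Tfrc* was variable with a CV of 0.963.

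The variable genes had a median CV of 1.02 and a median mean level of 12.5 TPM. The median reached 100 TPM in 15 of them, against 272 of the steady genes. Among them 46 of 420 (10.95%) were clone-named genes or pseudogenes, against 4.26% of all 8405. Female 6 was the highest mouse in 32.1% of the variable genes and female 7 in 24.5%, against 17.6% and 17.3% of all genes. Without these 2 mice, 199 of 423 variable and 246 of 423 steady genes were shared with the sets from 11 mice. Genes called different between the sexes made up 10.5% of the variable genes, none of the steady genes and 1.32% of all. The CV was taken over both sexes together, so a sex difference itself raises it. These shares therefore follow in part from the definition.

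Of the 15 most variable genes named, 8 were MUPs or members of the sulfotransferase, P450 and sex-biased lists. The 15 were ranked by CV squared beyond counting, and clone names and pseudogenes below the leading places were passed over. The P450 *Cyp3a41a* (CV 1.80) was 920 and 993 TPM in females 5 and 6, 25.1 to 117 TPM in the other females and at most 9.88 TPM in males. *A1bg* (CV 1.76), a plasma glycoprotein, was 1395 TPM in female 5, 74.3 to 273 TPM in the other females and at most 20.5 TPM in males. *Mup-ps19* (CV 1.75), a MUP pseudogene, *Mup21* (CV 1.63) and the selenium-binding *Selenbp2* (CV 1.70) were highest in males, and the sulfotransferases *Sult2a2* (CV 1.75) and *Sult3a1* (CV 1.45) in females. *Mup10* (CV 1.66) was 189.7 TPM in male 2 and 51.4 TPM in female 7, and the sexes overlapped. A gene found in females alone can pass the median of 5 TPM with 6 of 11 mice and a gene found in males alone cannot, and *Sult2a2* and *Sult3a1* fell below it without female 6 and female 7.

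Others of the 15 most variable genes did not follow sex. *Igfbp1*, an insulin-repressed binding protein (CV 1.47), was 480.1, 277 and 238 TPM in females 5, 9 and 4, 9.68 to 51.8 TPM in the other females, and 2.26 to 33.7 TPM in males, with overlapping sexes. The kinase *Map3k1* (CV 1.497) was high in male 8 (335 TPM), male 11 (286 TPM), female 10 (144 TPM) and male 1 (91.5 TPM), and at most 10.3 TPM in the other 7 mice. *Agap2* (CV 1.56), a GTPase-activating protein, was 85.0 TPM in female 10 and 76.1 TPM in male 1 and at most 11.1 TPM elsewhere. *Arnt* (CV 1.46), a partner of the aryl hydrocarbon receptor, was 151 TPM in male 2.

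In 3 of them female 6 stood well above every other mouse. *Zfp518a*, a zinc finger protein (CV 1.73), was 64.4 TPM in female 6 and at most 10.1 TPM elsewhere, the ribonuclease *Rnaset2a* (CV 1.499) was 185 TPM in female 6 and at most 37.2 TPM elsewhere, and the phosphatase *Ptpre* (CV 1.45) was 75.3 TPM in female 6 and at most 25.8 TPM elsewhere. Without female 6 and female 7 the CVs were 0.675, 0.434 and 0.816, and *Zfp518a* and *Rnaset2a* were then no longer variable, while *Ptpre* still was.

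Among genes whose median reached 100 TPM, the 10 most variable named were *Cyp2c69* (CV 1.24), *Mup7* (CV 1.21), *Mup20* (CV 1.17), *Ugt1a9* (CV 1.16), *Gm13339* (CV 1.15), *Cyp2c40* (CV 1.08), *Mup17* (CV 1.06), *Mup1* (CV 1.05), the hepcidin gene *Hamp2* (CV 1.01) and *Sec61a1* (CV 0.959). Clone names and pseudogenes below the leading places, such as *Rps6-ps4*, were passed over here too. Some of the variable genes share sequence with a neighbour, and the spread of the sum is given beside that of the gene. *Ugt1a9*, a glucuronosyltransferase, had 61.1 TPM or less in males 3, 8 and 11 and 2746 to 6823 TPM in females 5, 6 and 7, but the 9 *Ugt1a* genes, which share exons, had a summed CV of 0.516. The ribosomal pseudogene *Rps6-ps4* had a CV of 0.993 and its parent *Rps6* 0.341, while their sum had 0.147. *Gm13339*, a near-copy of *mt-Nd2*, had a CV of 1.15 and the sum of both 0.533. For *C1ra* and *C1rb* the sum had a CV of 0.330, above the 0.278 of *C1ra* alone. *Rps6-ps4* was 0 in female 9, male 3 and male 8 and 9.33 TPM in male 11, and 50.3 to 270 TPM in the other mice, so it was low in the 4 mice with the largest share of genes with long runs of A. *Gm13339* was at most 22.9 TPM in those 4 mice and 15.2 TPM in male 2. The cause was not tested.

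**Figure D4:**
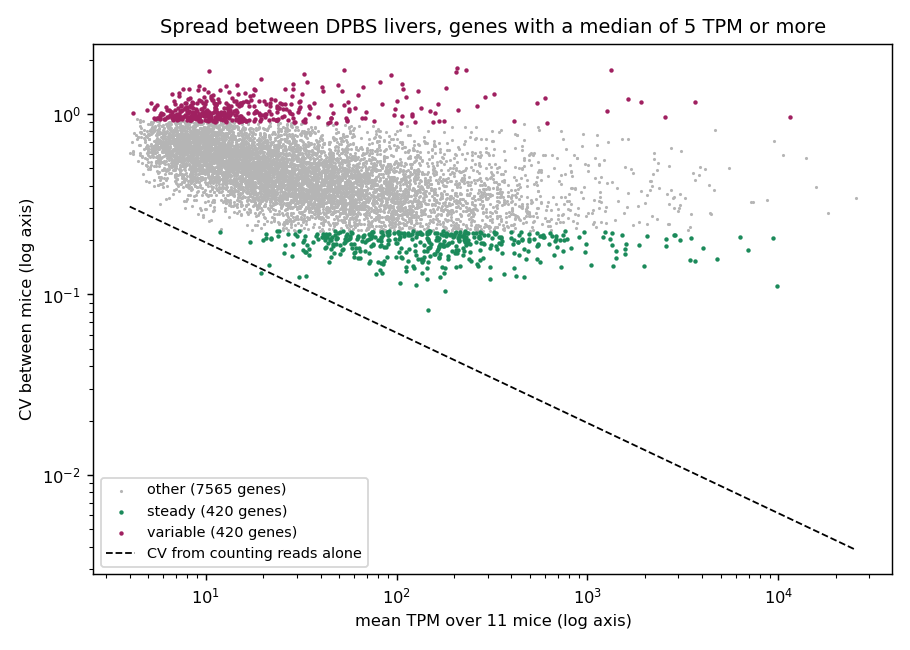
CV between the 11 DPBS mice against mean TPM, both on log axes, 1 point per gene whose median reached 5 TPM, with the 420 variable and 420 steady genes coloured and the CV from counting reads alone dashed. Most genes lie above the dashed line, with a median CV of 0.478 against 0.119.

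Some lists had no member in either class, where each class holds 5% of all genes. None of 22 cholesterol synthesis genes (median CV 0.467), of 17 clock genes (0.415), of 18 interferon-stimulated genes (0.523) or of 12 stress genes (0.536) was steady, and none was variable. For lists this short, such counts are near the share of all genes. Of 15 MUPs 10 were variable, and of 25 liver transcription factors 4 were, namely *Bcl6*, *Onecut1*, *Stat5b* and *Tox*. Variable as well were the metallothioneins *Mt1* and *Mt2*, the acid glycoproteins *Orm2* and *Orm3*, and the bile acid genes *Cyp7b1*, *Slco1a1* and *Slco1a4*.

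For pairs of genes, each of 1 pathway, levels on log2(TPM + 1) were correlated over the 11 mice, with permutation p-values adjusted over the 10 pairs computed. For the metallothioneins *Mt1* and *Mt2* and the fatty acid hydroxylases *Cyp4a10* and *Cyp4a14* the females lay apart from the males, so that no pooled correlation is given. With sex means subtracted, as a description, r was 0.734 and 0.630. *Saa1* and *Saa2*, acute phase genes, gave r = 0.754 and rho = 0.773 (adjusted permutation p = 0.0258 and 0.0195), with r = 0.680 without male 3 and female 6.

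*Pck1* and glucose-6-phosphatase (*G6pc*), the first and the last enzyme particular to gluconeogenesis, gave r = 0.712 and rho = 0.673 (adjusted permutation p = 0.0303 and 0.0552), with r = 0.848 without female 7 and male 3. These pairs did not pass the threshold: *Saa1* with *Lcn2* gave r = 0.516 and rho = 0.532 (adjusted permutation p = 0.174 and 0.164), *Arntl* with *Dbp* r = 0.152 and rho = 0.183 (0.647 and 0.717), *Nr1d1* with *Dbp* r = 0.268 and rho = 0.136 (0.646 and 0.717), *Fasn* with *Scd1* r = 0.173 and rho = 0.273 (0.647 and 0.598) and *Ifit1* with *Ifit3* r = 0.165 and rho = 0.123 (0.647 and 0.717). *Lcn2*, *Arntl* and *Ifit3* had means under 5 TPM, so that counting error weighs on them.

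The labels give sex as the 1 factor that differs among DPBS mice, and males were compared with females by limma on log2(TPM + 1). Of 8998 genes tested, 127 differed at an adjusted p under 0.05. They divide into 60 genes higher in males (0.667% of all tested) and 67 higher in females (0.745%). In 114 of the 127 the values of the sexes did not overlap, where 2.12% of all genes tested were without overlap, and 75 differed by more than 4-fold. Without the 4 mice with the largest share of genes with long runs of A, which left 2 males and 5 females, 41 genes were called, 40 of them among the 127. All 126 of the 127 that could still be tested kept their direction there. The 114 without overlap could not reverse in fewer of the same mice, so this is no independent check.

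Genes higher in males were led by MUPs, P450 enzymes and steroid or lipid enzymes. *Mup20*, also known as darcin, was 10405, 5658, 8780, 9099 and 5751 TPM in males 1, 2, 3, 8 and 11 and between 75.5 and 190.5 TPM in females, with a median of 131 TPM. Its log2 difference was 5.97 ± 0.26 (SE, limma adjusted p = 4.21e-11). *Cyp2d9*, a steroid 16-alpha-hydroxylase, was 649, 508, 401, 638 and 619 TPM in the same males and 8.39 to 30.6 TPM in females, with a log2 difference of 5.09 ± 0.31. *Cyp4a12a*, a fatty acid hydroxylase, was 168.9 to 298 TPM in males and at most 6.46 TPM in females (log2 difference 6.37), and its near-copy *Cyp4a12b* 37.3 to 93.5 TPM and at most 0.968 TPM (5.61).

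*Elovl3*, which elongates very long fatty acids, was 356 to 1289 TPM in males and 1.69 to 30.1 TPM in females (log2 difference 5.52). The highest male value was in male 2, and the lowest male value lay above every female. *Mup7* was 1932 to 5316 TPM in males and at most 132 TPM in females, *Mup21* 36.3 to 488 TPM and at most 5.41 TPM, *Mup-ps19* 316 to 7215 TPM and at most 40.0 TPM, and *Skint8* 42.3 to 110.5 TPM and at most 2.58 TPM. *Mup7* was called at adjusted p = 0.0222 by limma, but missed the threshold when female 7 or any 1 male was left out (adjusted p 0.0539 to 0.0709), and without the 4 mice named above (0.599), where its difference was 7.58. *Mup-ps19* differed by 8.60 on the log2 scale in DPBS mice and by 1.97 ± 2.79 (limma adjusted p = 0.845) in Control-GalNAc-ASO mice. The split of reads between this pseudogene and the MUP genes is uncertain.

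Genes higher in females were led by other P450 enzymes and sulfotransferases. *Cyp2c69* was 449, 947, 945, 180, 360 and 305 TPM in females 4, 5, 6, 7, 9 and 10 and 3.69, 6.05, 0.644, 7.49 and 6.32 TPM in males 1, 2, 3, 8 and 11, with a log2 difference, male minus female, of -6.46 ± 0.47 (limma adjusted p = 1.9e-07). *Cyp2c40* was 137 to 390 TPM in females and at most 8.60 TPM in males, and *Cyp3a41a* also differed (log2 difference -6.27), with adjusted p = 0.00385 and 0.0519 without the 4 mice named above. The transporter *Slc22a26* was 98.8 to 138 TPM in females and at most 2.82 TPM in males (log2 difference -5.82). *Hamp2* was 140.0 to 388 TPM in females and 0.189 to 18.7 TPM in males (-5.91).

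*A1bg* had the largest difference among them, -6.91 ± 0.80 on the log2 scale. The sulfotransferases *Sult2a1* (8.65 to 177 TPM in females), *Sult2a2* (9.72 to 253 TPM) and *Sult3a1* (13.5 to 201 TPM), which sulfate steroids and bile acids or amines, were at most 2.96, 4.06 and 0.246 TPM in males. Cyp2c, Cyp3a and Sult2a genes have close copies, and the split among copies is uncertain.

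**Figure D5:**
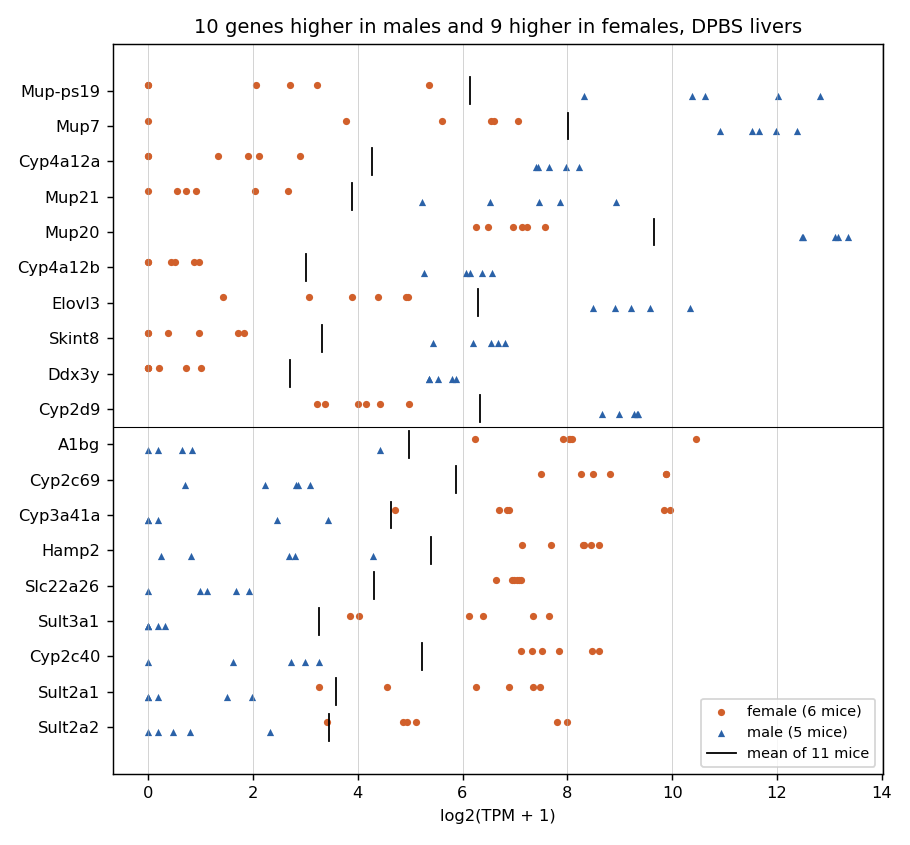
log2(TPM + 1) of the 10 genes named as higher in males (upper part) and 9 named as higher in females (lower part), 1 point per mouse (circles, 6 females; triangles, 5 males), with the mean of 11 mice as a vertical line. In each gene shown all males lie on 1 side of all females, as for *Mup20* at 5658 TPM or more in males and 190.5 TPM or less in females.

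Abundant secreted proteins differed as well, by less. *Alb* was 20218 ± 4848 TPM in females and 10522 ± 1568 TPM in males, and the log2 difference of -0.92 ± 0.20 had an adjusted p of 0.0208 in limma. The highest male, male 3 at 13179 TPM, overlapped the lowest female, female 10 at 12804 TPM. The call was lost without female 4, 5 or 9 or male 1, 2, 8 or 11 in turn (adjusted p up to 0.0797), without female 6 and female 7 together (0.0646), without the 4 mice with the largest share of genes with long runs of A (0.482), and under another choice of pseudocount, minimum or scaling (up to 0.0624). The differences in the fits that left out mice were -0.83 to -1.04, -0.88 and -0.96, but these fits reuse most of the same mice. In the Control-GalNAc-ASO mice the *Alb* difference was -0.52 ± 0.17 (limma adjusted p = 0.197). *Trf* was 30289 ± 9029 TPM in females and 19921 ± 3821 TPM in males and did not pass (adjusted p = 0.354).

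Complement genes went in both directions. *C6*, *C8a*, *C8b* and *C9*, which form the membrane attack complex, were higher in males, with log2 differences of 4.75, 1.82, 2.44 and 1.98, whereas *C3* (-0.81) and the lectin *Mbl2* (-1.16) were higher in females. These 6 were the called members among 19 tested. *C6* was 84.7 to 146 TPM in males and at most 17.95 TPM in females. The call of *C9* was lost without male 2, that of *C8b* without female 6 and female 7 together (adjusted p = 0.0771), that of *C3* without female 4 or 5 or male 1, 3, 8 or 11, and that of *Mbl2* without female 4, 5 or 6 or male 2, 3, 8 or 11. Without the 4 mice with the largest share of genes with long runs of A, *C8a* alone of the 6 was called.

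Several other functions had called members. The metallothioneins *Mt1* (94.1 ± 33.6 TPM in females, 7.93 ± 3.90 TPM in males) and *Mt2* (260.4 ± 129 and 17.7 ± 14.2 TPM), which bind zinc and copper, were higher in females, with log2 differences of -3.45 and -4.04. So were *Cyp2a5* (4150 ± 968 and 1031 ± 236 TPM) and *Cyp2a4*, which are near-copies, *Cyp4a14* (1174 ± 323 and 233 ± 84.0 TPM), *Fgl1*, and the prolactin receptor *Prlr* (167 to 205 TPM in females, 37.3 to 68.6 TPM in males). *Fgl1* missed the threshold without the 4 mice with the largest share of genes with long runs of A (adjusted p = 0.0796). *Gstp1*, a glutathione S-transferase, was 1544, 1046, 961, 1255 and 1058 TPM in males 1, 2, 3, 8 and 11 and 133 to 164 TPM in females (2.91 ± 0.20). *Cyp7b1*, an oxysterol hydroxylase, *Slco1a1*, an organic anion transporter, *Serpina1e*, an alpha-1-antitrypsin gene, and *Alas2*, the erythroid enzyme of heme synthesis, were higher in males by 3.64, 5.04, 5.03 and 3.02. *Alas2* missed the threshold without the 4 mice with the largest share of genes with long runs of A (adjusted p = 0.157). The other erythroid markers did not pass, with *Hbb-bs* at 793 ± 295 TPM in females and 525 ± 352 TPM in males.

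The counts by list are read against 0.667% of all genes called higher in males and 0.745% higher in females. Of 43 cytochrome P450 genes tested, 5 were higher in males and 11 in females, and of 18 glucuronosyl and sulfotransferases 7 were higher in females, all of them sulfotransferases, and none in males. The sum of the 9 *Ugt1a* genes, which share exons, was 3391 to 7833 TPM in females and 1748 to 2860 TPM in males. That sum was not tested. Of 16 MUPs 9 were higher in males and none in females. In fatty acid oxidation 3 of 31 were higher in females, namely *Acot3*, *Cyp4a10* and *Cyp4a14*, and the call of *Cyp4a10* was lost when 8 of the 11 mice were left out in turn (females 4, 5, 7 and 9 and males 1, 2, 3 and 11). None was called among 82 ribosomal and 76 nuclear oxidative phosphorylation genes, nor in the shorter mitochondrial, clock, interferon, gluconeogenesis and urea cycle lists, where at those shares about 1 call or fewer per list would be the background. Of genes known to be higher in male liver 19 of 25 tested were higher in males and none in females, and of those known to be higher in female liver 23 of 32 were higher in females and 1, the lipase *Lpl*, in males. Both lists were chosen with earlier results of these data known, so these counts are a description and no independent check. The call of *Lpl* held only without female 5 or female 10 among the fits that left out 1 mouse, and that of *Afm*, higher in females, was lost without male 3, 8 or 11.

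*Sec61a1* and the cytoskeletal linker *Dst* were the 2 called genes with a run of at least 30 A. *Sec61a1* was 11858, 14648, 29116, 15483 and 33576 TPM in males 1, 2, 3, 8 and 11 and between 1717 and 9874 TPM in females, with a log2 difference of 2.64 ± 0.40 (limma adjusted p = 0.00152). Without the 4 mice with the largest share of such genes the difference was 2.43 ± 0.33 (adjusted p = 0.00138), whereas *Dst* lost its call there (0.475) and without female 4 or 5 or male 3, 8 or 11 in turn. *Scp2* (5630 ± 449 TPM in males, 3422 ± 508 TPM in females) and *Mat1a* (2157 ± 215 and 3663 ± 475 TPM) were called with differences of 0.73 and -0.76, but each lost its call in 10 of the 11 fits that left out 1 mouse, with *Scp2* holding only without female 5 and *Mat1a* only without female 9. Another choice of pseudocount, minimum or scaling gave adjusted p-values up to 0.0565 for *Scp2* and 0.0521 for *Mat1a*, and likewise up to 0.065 for *Mbl2*, 0.0732 for *Cyp4a10* and 0.0865 for *Lpl*.

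The same differences were read in the 10 Control-GalNAc-ASO mice, fitted with dose as a covariate. Of the 127 genes, 125 had the same direction there and the other two, *Afm* (a vitamin E carrier) and *Lpl*, the opposite one, while 46.6% of the 8871 genes not called in DPBS mice had the same direction in both. In a fit of those mice limited to the genes tested in DPBS mice, 84 of the 127 were called in the same direction and none in the opposite one. A separate fit, of the genes that reached the minimum in Control-GalNAc-ASO mice, called 65 higher in males (0.702% of 9260 tested) and 80 higher in females (0.864%). *Mup20* differed by 5.55 ± 0.28 and *Cyp2c69* by -7.08 ± 0.48 on the log2 scale. *Alb* differed by -0.52 ± 0.17 (limma adjusted p = 0.197). The sex difference itself was compared between the treatments by a limma interaction term, and 0 of 8998 genes passed, with 820 at an unadjusted p under 0.05 and a lowest adjusted p of 0.118.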

How the data were processed

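Liver RNA of 31 mice was sequenced, and the 11 DPBS and 10 Control-GalNAc-ASO mice were used; the *Upf3b*-GalNAc-ASO mice were not used here. The authors quantified transcripts with Salmon 0.7.2 (quasi-mapping; Ensembl cDNA of GRCm38), after bcl2fastq 2.17.1.14, and deposited TPM per gene symbol. The labels name a 3′ mRNA-Seq kit and the study's methods a TruSeq protocol. In each mouse 70.2% to 81.6% of values above 0 were whole multiples, within 0.02 of a read, of 1 step, at all transcript lengths, so the TPM were treated as scaled reads not divided by length. No count test was used, since the other values were not whole. From the step, libraries held a median of 3100417 reads. Per mouse 31172 symbols were used, 30573 of which matched GENCODE M21, and 26 that had been turned into dates were left out.

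Males and females were compared with limma 3.58.1 (R 4.3.3; trend and robust) on log2(TPM + 1), for genes whose median reached 5 TPM in either sex, with Benjamini-Hochberg adjustment over all genes tested. Python 3.11.15, numpy 2.4.6, pandas 2.3.3, scipy 1.17.1 and matplotlib 3.10.9 did the rest. Replicates are separate mice. The fit was checked on simulated data. Alternatives were other pseudocounts, TPM minimums, scaling, spread measures, division by length and left-out mice. Named are the 25 leading genes, up to 4 leading genes per list, markers, the 15 most variable and 15 steadiest genes, the 10 most variable of at least 100 TPM, the 10 largest differences in each sex direction without overlap, and the 10 pairs; genes outside this rule were chosen after their values were seen. The gene lists were chosen with earlier results of these data known. Pseudogenes and clone names were named only among leading genes or beside a near-copy. Some genes that this rule picks are not reported here.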

Additional observations from a re-analysis of the deposited data

Results flagged for a closer look

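In 174 groups of 5 or 6 mice of 1 sex, 15 values (8.62%) lay apart from the rest of their group by Dixon's test, where chance gives about 1 in 20 in groups that were not selected. Several of these genes were named for a large spread, so the share is not compared with chance. Female 6 had 4 of them: *mt-Nd4* at 31974 TPM with the next female at 17674, *Gm29216* at 34147 TPM (next 16662), *mt-Nd6* at 9184 TPM (next 4601) and *Zfp518a* at 64.4 TPM (next 7.60). Female 5 was apart for *A1bg* at 1395 TPM (next 273) and for the share of the 8 secreted lists at 17.7% (next 15.0%). Female 9 was apart for *Sec61a1* at 9874 TPM (next 3587) and, on the low side, for *Uox* at 7448 TPM (next 9508). Female 4 had the highest share of genes of GalNAc uptake and RNase H, 0.579% (next 0.293%), and female 7 the highest *Mup-ps19* among females, 40.0 TPM (next 8.33).

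Among males, male 1 was apart for *Ugt1a9* at 2365 TPM (next 428) and *Gm13339* at 1173 TPM (next 22.9). Male 8 had the highest *A1bg*, 20.5 TPM (next 0.784), and the highest *Sult2a2*, 4.06 TPM (next 0.738), both below every female. Male 3 had the lowest *Apoe*, 4246 TPM (next 4688).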

How the results depend on the processing

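No paired analysis was possible because each DPBS replicate number belongs to 1 mouse, so males and females share no number. Divided by transcript length, the 25 leading genes held 30.2% of TPM instead of 21.1% and the secreted lists 16.5% instead of 14.7%. Of the 420 variable genes, 168 were shared with the set by SD of log2(TPM + 1), 152 by the median absolute deviation, 170 with a minimum of 10 TPM and 199 without female 6 and female 7. Of the 420 steady genes, 173 were shared by the median absolute deviation and 246 without those 2 mice. The median CV of 0.478 was 0.428 with a minimum of 10 TPM and 0.409 without those 2 mice. The sex comparison called 41 genes, 19 higher in males and 22 in females, without the 4 mice with the largest share of genes with long runs of A. With 1 mouse left out, the 25 leading genes held 20.9% to 21.4%, the secreted lists 14.4% to 14.9% and the metabolic lists 9.20% to 9.57%, the median CV was 0.438 to 0.486, 283 to 354 variable and 299 to 372 steady genes were shared, and 86 to 134 genes were called (39 to 60 higher in males, 46 to 74 in females), with 86 without male 11 and 39 higher in males without male 2. In Control-GalNAc-ASO mice 104 to 139 were called. The sex comparison called 109 to 139 genes under the other pseudocounts, minimums and scaling, 102 without female 6 and female 7, and no called gene reversed its direction. Genes without overlap between the sexes could not reverse when mice were left out. The alternatives without the 4 mice, without genes with long runs of A, without 1 Control-GalNAc-ASO mouse, and, for spread and correlations, without female 6 and female 7 were chosen after seeing the data. Why each value moved was not tested. Depth limits genes near 5 TPM most, since 3 reads were worth up to 2.53 TPM.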
